A study of Homo sapiens with 12 samples.

Results

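Inhibitor of apoptosis (IAP) genes and the mitochondrial proteins that oppose them were followed in KYSE150 and KYSE510, human lines of esophageal squamous carcinoma (ESCC) that have long been in culture. The 7 genes were chosen by name as the rows BIRC2, BIRC3, XIAP, BIRC6, BIRC5, DIABLO and HTRA2 of a table of 38516 genes. All 7 passed the filter on low values and were among the 17823 genes tested. Both lines were grown in RPMI-1640 with serum. The 4 groups, of 3 libraries each, were KYSE150 control, KYSE150 with HCP5 silenced, KYSE510 control and KYSE510 with HCP5 silenced. HCP5 codes for a long RNA that is not translated. All libraries were made from total RNA of unselected cultured cells. The labels do not give the control construct, and they do not say whether replicates were separate cultures, so p-values measure the spread between these libraries only. The title of the series links HCP5 to the inhibition of apoptosis, and the comparison of silenced with control cells asks whether genes that restrain caspases moved with HCP5.

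IAP proteins carry BIR domains, small zinc-binding folds that dock onto caspases and signalling partners. XIAP binds caspases and blocks their activity. BIRC2 and BIRC3 (cIAP1 and cIAP2) are ubiquitin ligases that sit in TNF receptor complexes, favour NF-kappaB signalling and drive the turnover of the kinase MAP3K14. BIRC6 (BRUCE) is a very large ubiquitin-conjugating member, and BIRC5 (survivin) serves mainly in the chromosomal passenger complex during mitosis. DIABLO (SMAC) and the serine protease HTRA2 (Omi) are held in mitochondria and, once released, occupy the BIR pockets and free the caspases. Their release from mitochondria is a step that RNA levels do not show.

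BIRC2 and BIRC3 lie side by side on the plus strand of chromosome 11 (GRCh38), BIRC3 at chr11:102317450-102339403 and BIRC2 at chr11:102347211-102378670, with 7808 bases between them. The other members lie apart: BIRC5 at chr17:78214186-78225636, BIRC6 at chr2:32357028-32618899, HTRA2 at chr2:74529377-74533348 and XIAP at chrX:123859724-123913979, all on the plus strand, and DIABLO at chr12:122207662-122227534 on the minus strand. Promoter windows of 300 bases around an annotated start were found in RefSeq on GRCh38.p14 for 6 of the 7 genes, in 14 windows. The windows of the neighbouring pair are shown because BIRC3 is a textbook NF-kappaB target and the pair differed in level in every library. Capitals mark matches to the NF-kappaB consensus, searched on both strands, and both matches read on the minus strand.
BIRC3, chr11:102317234-102317533, plus strand: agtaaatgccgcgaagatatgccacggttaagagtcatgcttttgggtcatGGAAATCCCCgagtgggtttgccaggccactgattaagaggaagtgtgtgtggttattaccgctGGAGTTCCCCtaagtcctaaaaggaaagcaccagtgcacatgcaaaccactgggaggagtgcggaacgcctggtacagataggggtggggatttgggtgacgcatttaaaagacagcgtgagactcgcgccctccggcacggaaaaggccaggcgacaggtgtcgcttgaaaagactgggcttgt
BIRC2, chr11:102346964-102347263, plus strand: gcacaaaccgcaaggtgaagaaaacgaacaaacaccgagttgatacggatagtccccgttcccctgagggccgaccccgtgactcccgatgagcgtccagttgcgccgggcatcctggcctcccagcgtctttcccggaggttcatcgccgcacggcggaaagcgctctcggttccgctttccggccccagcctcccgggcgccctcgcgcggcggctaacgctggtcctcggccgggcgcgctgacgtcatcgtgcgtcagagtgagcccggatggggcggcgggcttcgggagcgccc

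The BIRC3 window held 2 matches, which begin at bases 52 and 116 of the window, and neither of the 2 BIRC2 windows held one. One of the 2 BIRC6 windows held 1 match and the windows of XIAP, DIABLO and HTRA2 held none. Of all 35116 RefSeq windows of this length, 5.91% held at least 1 match. The E-box CACGTG, the site bound by MYC and its partners, was found in 1 of the 4 DIABLO windows and in no window of the other 5 genes, against 7.26% of all windows. These matches describe the letters only, and binding was not measured.

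Reads assigned to genes, recovered from the deposited values, ran from 20035025 to 28202422 per library. In KYSE150 every silenced library was deeper than every control. The share of reads from mitochondrial genes was 7.49% to 8.91% for KYSE150 and 10.2% to 11.5% for KYSE510. HCP5 was at 0.745 to 0.786 RPKM (a read count per base of exon and per assigned read, scaled) in KYSE150 controls and 0.315 to 0.579 in silenced libraries, and at 0.914 to 1.85 and 0.505 to 0.951 in KYSE510, where the groups overlapped. All 8 markers of squamous epithelium were above 0.5 RPKM in both lines, with sums of 1102 to 3132 RPKM per library. The means of TP63 were 15.4 to 23.2 RPKM. The 6 fibroblast markers summed to at most 0.901 RPKM and the 3 endothelial markers to at most 2.09. Of 5 leukocyte markers only CD68 was above 0.5 RPKM, while PTPRC, the pan-leukocyte marker, reached at most 0.00566. The sum of the squamous markers ran from 1102 to 1770 RPKM in KYSE150 controls and from 1368 to 2964 in silenced libraries, and from 1537 to 2081 and from 1906 to 3132 in KYSE510. TP63 was called for the mean change over both lines (log2 change 0.32, SE 0.06, adjusted p = 0.0483). The part of these markers in the results below was not tested. In bulk RNA, fewer cells of a kind and less RNA per cell cannot be told apart.

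The 7 genes kept nearly the same order of level per exon length in all groups. BIRC5 was highest, at 33.9 ± 1.80 RPKM in KYSE150 controls and 24.1 ± 3.01 in KYSE510 controls (SD, n = 3), above 91.4% and 88.3% of tested genes. DIABLO followed in every group, then HTRA2 and BIRC2, then BIRC6, XIAP and BIRC3. BIRC3 was the lowest, at 0.762 ± 0.244 RPKM in KYSE150 controls and 1.32 ± 0.427 in KYSE510 controls (SD, n = 3), below most tested genes. HTRA2 stood above BIRC2 in KYSE150 and below it in KYSE510. Their libraries overlapped in range in 3 of the 4 groups, as did BIRC2 and BIRC6 in both groups of KYSE150 and DIABLO and BIRC2 in KYSE510 controls. All other neighbours in the order were separate in range. BIRC5 made up 71.8% ± 1.99 of the summed RPKM of the 5 IAP genes in KYSE150 controls and 60.7% ± 3.86 in KYSE510 controls (SD, n = 3).

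**Figure D1:**
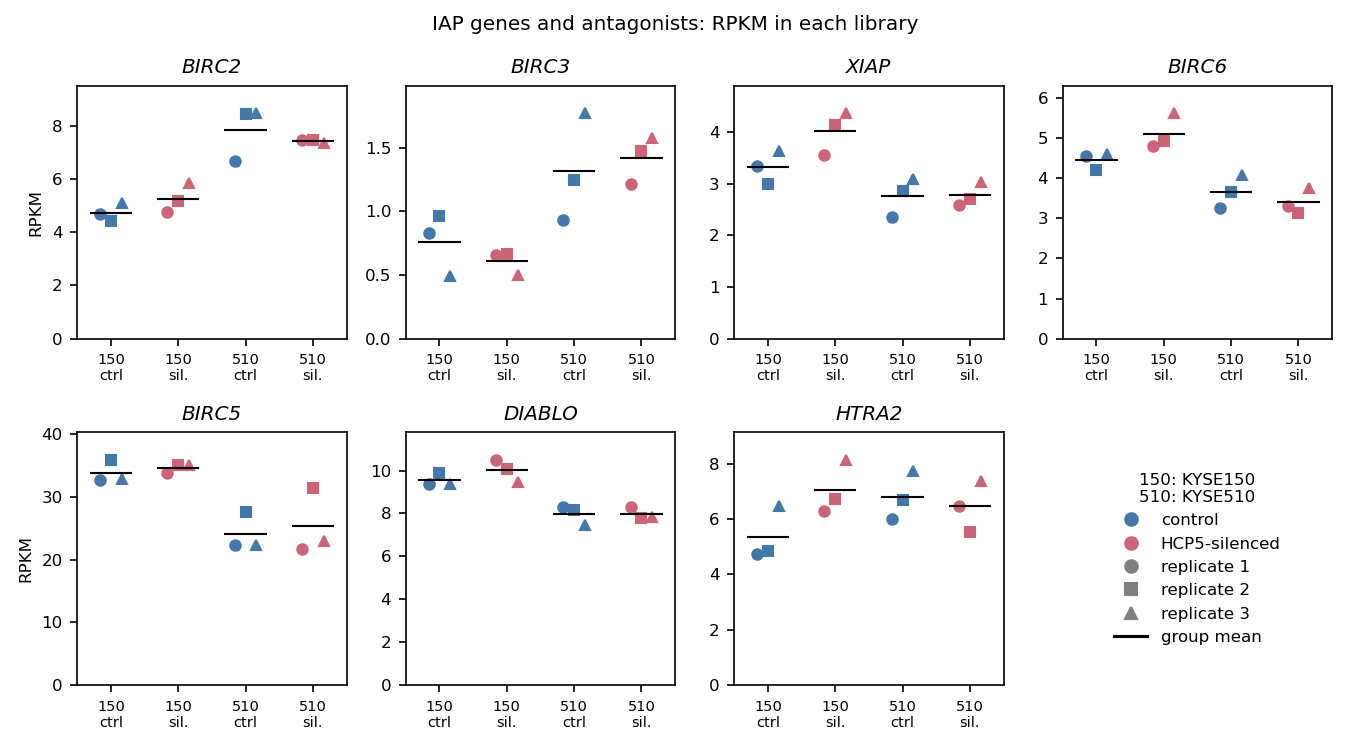
RPKM (vertical axis, from 0) of each gene in the 12 libraries, by cell line and treatment, with replicates as symbols and a line at each group mean. BIRC2 sits at 4.40 to 5.83 in KYSE150 and at 6.65 to 8.47 in KYSE510, and BIRC5 shows the reverse order of lines.

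By the unpaired limma model, none of the 5 IAP genes passed the test after HCP5 silencing in either line. In KYSE150 XIAP, BIRC6 and BIRC2 were higher in the silenced library of all 3 same-numbered pairs. The share of all tested genes higher in all 3 pairs was not counted, and 66.1% of them had a difference above 0 there. XIAP passed with voom on recovered reads plus a replicate block (adjusted p = 0.0371), a fit that called 19% of all tested genes in KYSE150. XIAP, the direct caspase inhibitor, was at 3.34, 3.001 and 3.64 RPKM in KYSE150 control replicates 1 to 3 and at 3.56, 4.13 and 4.37 in silenced replicates. Silenced replicate 1 lay below control replicate 3, so the groups overlapped. The log2 difference of XIAP was 0.24 (SE 0.11, 95% interval -0.01 to 0.49), with a limma adjusted p of 0.291. In KYSE510 XIAP was at 2.35, 2.86 and 3.10 RPKM in controls and 2.58, 2.71 and 3.04 in silenced libraries. The values nearly coincide, and the log2 difference was 0.01 (SE 0.11, 95% interval -0.24 to 0.26, adjusted p = 1).

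BIRC6, the giant ubiquitin-conjugating IAP, was the member whose KYSE150 groups did not overlap. It was at 4.56, 4.22 and 4.62 RPKM in controls and at 4.81, 4.93 and 5.63 in silenced libraries, a log2 difference of 0.18 (SE 0.10, adjusted p = 0.362). Such separation was found in 19.2% of tested genes in KYSE150, so 1 of 7 members is near that background. In KYSE510 BIRC6 was at 3.26, 3.67 and 4.08 RPKM in controls and 3.31, 3.14 and 3.76 in silenced libraries. Those ranges overlapped and the log2 difference was -0.09 (SE 0.10, adjusted p = 0.948). None of the 7 members separated the groups in KYSE510, where 12.1% of tested genes did.

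The ubiquitin ligase BIRC2 was at 4.69, 4.40 and 5.09 RPKM in KYSE150 controls and 4.74, 5.16 and 5.83 in silenced libraries. The groups overlapped, with a log2 difference of 0.13 (SE 0.10, adjusted p = 0.512). In KYSE510 it was at 6.65, 8.42 and 8.47 RPKM in controls and 7.44, 7.46 and 7.35 in silenced libraries. The silenced libraries lay inside the control range, at a log2 difference of -0.07 (SE 0.10, adjusted p = 0.969). Its paralog BIRC3 was at 0.830, 0.965 and 0.492 RPKM in KYSE150 controls and 0.658, 0.665 and 0.503 in silenced libraries, again inside the control range. The log2 difference of BIRC3 was -0.17 (SE 0.18, 95% interval -0.58 to 0.23, adjusted p = 0.646), the widest interval of the members. Without KYSE150 control replicate 3 it was -0.34, without control replicate 2 it was -0.0545 and without silenced replicate 3 it was -0.10. These values of BIRC3 rest on 84 to 149 reads per library. In KYSE510 BIRC3 was at 0.929, 1.25 and 1.77 RPKM in controls and 1.21, 1.47 and 1.58 in silenced libraries, a log2 difference of 0.10 (SE 0.18, adjusted p = 0.98). The ratio of BIRC2 to BIRC3 ran from 4.55 to 11.6 over the libraries of KYSE150 and from 4.66 to 7.16 in KYSE510.

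BIRC5, the mitotic member, was at 32.8, 36.0 and 32.9 RPKM in KYSE150 controls and 33.8, 35.0 and 35.0 in silenced libraries. All 3 silenced libraries lay within the control range, and the log2 difference was 0.03 (SE 0.13, 95% interval -0.25 to 0.31, adjusted p = 0.935). In KYSE510 it was at 22.3, 27.5 and 22.4 RPKM in controls and 21.8, 31.5 and 23.0 in silenced libraries, a log2 difference of 0.06 (SE 0.13, adjusted p = 0.976). Replicate 2 was the high library in both KYSE510 groups. That library pair was above the other 4 KYSE510 libraries for 10 of 16 tested genes of a list of passenger complex and mitosis partners, among them AURKB, INCENP and CDCA8, which form the complex with BIRC5. Over all tested genes the share was 12.5%. Leaving out silenced replicate 2 turned the log2 difference of BIRC5 in KYSE510 to -0.0957. This feature was singled out after its values were seen.

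Among the antagonists, HTRA2 had the largest difference in KYSE150. It was at 4.72, 4.84 and 6.49 RPKM in control replicates 1 to 3 and 6.30, 6.72 and 8.16 in silenced replicates. Control replicate 3 lay above silenced replicate 1, so the groups overlapped. The silenced library was higher in all 3 same-numbered pairs, by 0.38, 0.44 and 0.31 on the log2 scale. How many of all tested genes were higher in all 3 pairs was not counted. The log2 difference was 0.38 (SE 0.15, 95% interval 0.05 to 0.70), with a limma adjusted p of 0.231, so the call was not made. With a replicate block the adjusted p was 0.0426, past the threshold of 0.05, in a fit that called 6.7% of all tested genes. With both the block and median centring of each library it was 0.0702.

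The share of reads from mitochondrial genes moved with HTRA2. In KYSE150 that share was 8.85%, 8.91% and 7.86% for control replicates and 8.19%, 7.68% and 7.49% for silenced replicates. Over the 12 libraries, after the mean of each line was subtracted, HTRA2 correlated with it at r = -0.95 and with log2 depth at r = 0.87. These correlations are descriptions over libraries that share their totals, and the part of the share or depth in the HTRA2 difference was not tested. HTRA2 shares 625 of its 3001 exon bases with LOXL3 and 483 with AUP1, both on the opposite strand. The use of strand in counting is not given in the sources used here, so part of its reads is uncertain. In KYSE150 the log2 difference was 0.01 (SE 0.08) for LOXL3 and 0.11 (SE 0.13) for AUP1. In KYSE510 HTRA2 was at 5.998, 6.70 and 7.74 RPKM in controls and 6.47, 5.52 and 7.38 in silenced libraries. There the log2 difference was -0.07 (SE 0.15, adjusted p = 0.976).

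DIABLO had the smallest standard error of the members. It was at 9.39, 9.91 and 9.35 RPKM in KYSE150 controls and 10.5, 10.1 and 9.46 in silenced libraries. The silenced library was higher in all 3 same-numbered pairs, a count not made over all tested genes. The log2 difference was 0.07 (SE 0.07, 95% interval -0.09 to 0.22, adjusted p = 0.648). In KYSE510 it was at 8.29, 8.17 and 7.49 RPKM in controls and 8.31, 7.81 and 7.84 in silenced libraries. The 2 groups had almost the same mean there, with a log2 difference of 0.00 (SE 0.07, 95% interval -0.15 to 0.16). DIABLO shares 1139 of its 5967 exon bases with RP11-512M8.5 on the same strand and 971 with B3GNT4 on the opposite strand. The ratio of DIABLO to XIAP was 2.89 ± 0.374 in KYSE150 controls and 2.52 ± 0.402 in silenced libraries, and 2.93 ± 0.557 and 2.89 ± 0.321 in KYSE510 (SD, n = 3). The summed RPKM of DIABLO and HTRA2 was 14.9 ± 0.873 in KYSE150 controls and 17.1 ± 0.460 in silenced libraries, and 14.8 ± 0.473 and 14.5 ± 0.988 in KYSE510 (SD, n = 3). In KYSE150 the lowest silenced sum, 16.8, was above the highest control sum, 15.8. That sum received no test. Of single tested genes, 19.2% separated the groups in KYSE150, and the share for sums of genes was not counted.

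In all, 0 of 7 members were called in KYSE150 by the unpaired limma model, where 0.499% of tested genes were. Before adjustment 1 of 7, HTRA2, was under 0.05, as were 18.1% of tested genes. In KYSE510 the count was 0 of 7 against 0.0393% of tested genes, with none under 0.05 before adjustment. For the mean change over both lines it was 0 of 7 against 0.539%, with none under 0.05 before adjustment. The largest mean log2 changes were 0.15 (SE 0.10, adjusted p = 0.655) for HTRA2 and 0.12 (SE 0.08, adjusted p = 0.63) for XIAP. The limma fit with a replicate block called 1 of 7 in KYSE150, HTRA2, and 6.7% of all tested genes. With voom on the recovered reads and a replicate block, HTRA2 (adjusted p = 0.0112) and XIAP (0.0371) were called in KYSE150. That fit called 19% of all tested genes there, so 2 of 7 is not far from that share.

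The KYSE150 differences have to be read against all genes of that line. The median log2 difference was 0.08 over all tested genes, of which 66.1% were above 0, and 0.13 over the 7 members, of which 6 were above 0. After median centring of each library the median over all genes was -0.05, and that over the members was 0.00. The differences of DIABLO (-0.06) and BIRC5 (-0.10) then fell below 0, those of HTRA2 (0.25), XIAP (0.11), BIRC6 (0.05) and BIRC2 (0.00) did not, and BIRC3 was at -0.30. The direction of DIABLO and BIRC5 in KYSE150 thus differed with the scaling.

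The change after silencing was also compared between the lines. By limma it differed for 0 of 7 members and for 0% of tested genes, with no member under 0.05 before adjustment. HTRA2 came closest, with a change lower in KYSE510 than in KYSE150 by 0.45 on the log2 scale (95% interval of the difference -0.91 to 0.01, adjusted p = 0.41). BIRC6 (-0.27, SE 0.14) and XIAP (-0.23, SE 0.16) had the same sign, with adjusted p of 0.425 and 0.513. That sign was common: 33.0% of all tested genes and 2 of the 7 members were above 0. The median was -0.12 over all tested genes and -0.20 over the members. After median centring these medians were 0.04 and -0.05. With voom plus the block HTRA2 was called (adjusted p = 0.0429), as were 7.59% of tested genes.

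**Figure D2:**
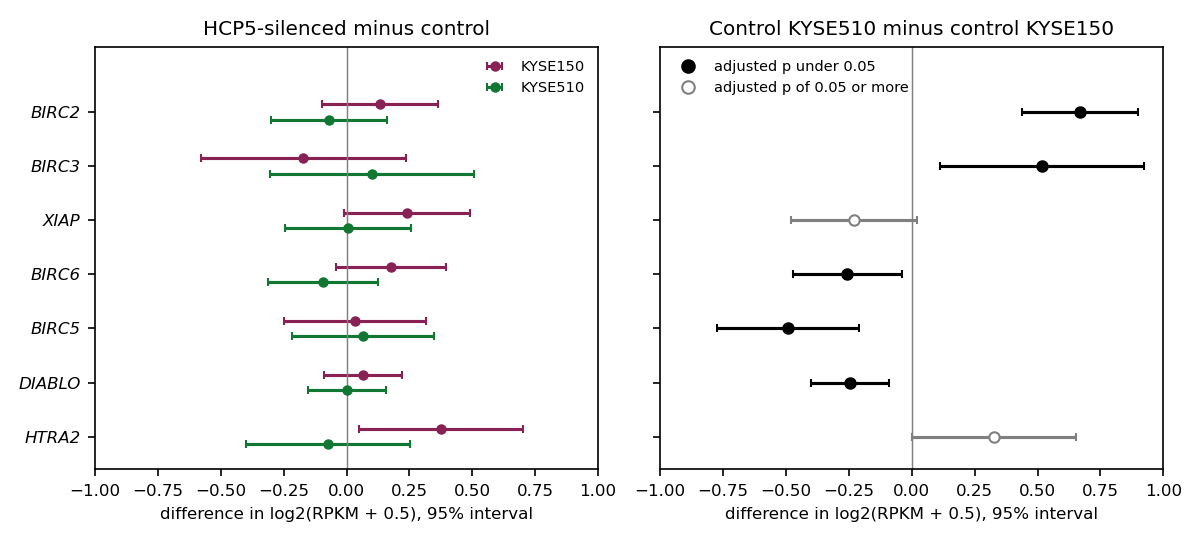
Differences in log2(RPKM + 0.5) of the 7 genes with 95% intervals from limma, for silenced minus control in each line (left) and for control KYSE510 minus control KYSE150 (right, filled where the adjusted p is under 0.05). All silencing intervals but that of HTRA2 in KYSE150 include 0, while BIRC2 and BIRC3 lie right of 0 and BIRC5, DIABLO and BIRC6 left of it between control lines.

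Between the control lines 5 of 7 members differed, where 62% of all tested genes did, so the count is near that background. BIRC2 and BIRC3 were higher in KYSE510. BIRC5, DIABLO and BIRC6 were lower. The ranges of 4 members did not overlap between the control groups, against 64% of tested genes. For the same 4 members, BIRC2, BIRC5, DIABLO and BIRC6, all 6 libraries of one line were separate from all 6 of the other. Their silenced libraries thus kept the order of the lines. The share of all tested genes separate in this way was not counted, so no trait of the 4 members is read from it.

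BIRC2 had the largest log2(RPKM + 0.5) difference. Its mean was 4.73 ± 0.350 RPKM in KYSE150 and 7.85 ± 1.04 in KYSE510 (SD, n = 3). That was 1.59-fold higher on the log2(RPKM + 0.5) scale (log2 difference 0.67, SE 0.10, limma adjusted p = 0.000184). BIRC3 was 1.43-fold higher on that scale (0.52, SE 0.18, adjusted p = 0.0293). As a share of the KYSE150 mean of RPKM itself, BIRC3 was at 172.7% and BIRC2 at 166%. The call of BIRC3 was lost without KYSE150 control replicate 3 (adjusted p = 0.115), without KYSE510 control replicate 2 (0.0572) and without KYSE510 control replicate 3 (0.125). BIRC5 was lower in KYSE510 by 0.49 on the log2 scale (SE 0.13, adjusted p = 0.00596), 71.0% of its KYSE150 mean. DIABLO was at 83.6% of its KYSE150 mean (log2 difference -0.25, SE 0.07, adjusted p = 0.01003), and the call was lost with median centring (0.107) and with quantile normalization (0.109). B3GNT4 and RP11-512M8.5, which share exon bases with DIABLO, also differed between control lines, with log2 differences of -0.34 and -0.25. BIRC6 was at 82.2% (-0.26, SE 0.10, adjusted p = 0.0424). Its call was lost in 6 of the 12 fits that leave out 1 library: KYSE150 control replicate 1 (adjusted p = 0.104) or 3 (0.0977), KYSE150 silenced replicate 2 (0.0552), KYSE510 control replicate 1 (0.148) or 2 (0.0844), and KYSE510 silenced replicate 1 (0.0555). With no filter on low values BIRC3 (0.0645) and BIRC6 (0.0615) were both lost.

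HTRA2 (0.33, SE 0.15, adjusted p = 0.0744) and XIAP (-0.23, SE 0.11, adjusted p = 0.0995) were not called between control lines. Both were called after median centring, which called 63.4% of all tested genes, HTRA2 at 0.0123 and XIAP at 0.0294, and HTRA2 also without KYSE150 control replicate 3 (0.017). The ratio of HTRA2 to DIABLO was 0.562 ± 0.115 in KYSE150 controls and 0.859 ± 0.159 in KYSE510 controls (SD, n = 3), with no overlap.

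The genes around BIRC2 and BIRC3 were examined because the pair shared its direction between lines. Of 13 tested genes within 500 kb of BIRC2, BIRC3 included, 8 were called higher in KYSE510 controls and 4 lower. Of all tested genes 28.3% were called higher and 33.7% lower. The median log2 difference of the 13 was 0.81, against -0.07 over all tested genes. TMEM123, 17662 bases from BIRC2, had means of 15.5 RPKM in KYSE150 and 84.7 in KYSE510 controls (log2 difference 2.40, SE 0.17, adjusted p = 2.84e-07). YAP1, a coactivator of the Hippo pathway, had means of 19.8 and 35.0 RPKM (0.81, SE 0.12, adjusted p = 9.49e-05). RP11-315O6.1 differed by 1.76 (SE 0.23) and RP11-864G5.3 by 0.91 (SE 0.16). The 4 genes called lower, MMP10, WTAPP1, MMP1 and MMP3, all lay on the same side of BIRC2, the nearest of them 368298 bases away. DNA copy number was not measured. None of the 13 genes was called after silencing in either line, where 0.499% of all tested genes were called in KYSE150 and 0.0393% in KYSE510.

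**Figure D3:**
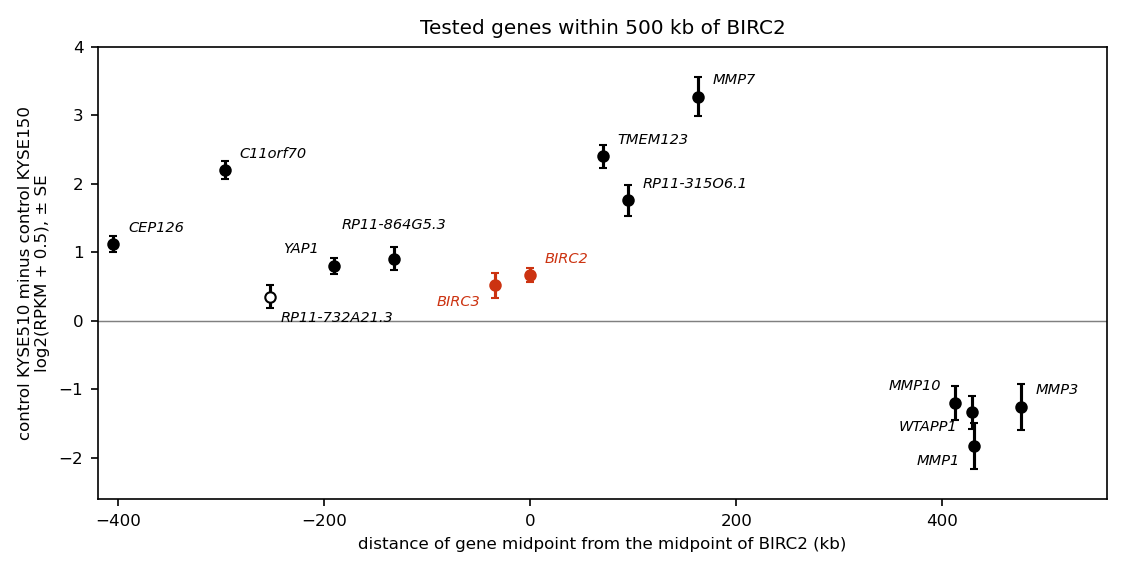
Log2 difference between control KYSE510 and control KYSE150 (vertical axis, ± SE) of BIRC2 and its 13 tested neighbours, by distance of gene midpoints in kb, filled where the adjusted p is under 0.05. BIRC2 (0.67) and BIRC3 (0.52) lie among 8 other genes with differences above 0, and the 4 genes below 0 lie together at the right.

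Neighbours of the other members were counted in the same way, against the same shares of all tested genes. For BIRC5, 3 of 8 tested neighbours within 500 kb were called higher in KYSE510 and 2 lower, with TK1 (0.82, SE 0.12) among the higher. For DIABLO, 4 of 23 were higher and 11 lower, and VPS33A, 2030 bases away, differed by -0.06 (SE 0.08). For HTRA2, 4 of 32 were higher and 7 lower. For BIRC6, 3 of 9 were higher and none lower. BIRC6-AS1, which shares 49 exon bases with it on the opposite strand, differed by 0.08 (SE 0.20), and its nearest neighbour outside its own bounds, TTC27, at 0.00 (SE 0.09). For XIAP, 0 of 6 were higher and 2 lower, among them STAG2 (-0.32, SE 0.12). After silencing in KYSE150, 1 of the 9 tested neighbours of BIRC6 was called, DPY30, and none of any other member. Over all tested genes 0.499% were called there, so 1 call among the neighbours of all members is not read as a trait of BIRC6. DPY30 rose from a mean of 14.3 to 21.0 RPKM (log2 difference 0.53, SE 0.08, adjusted p = 0.0217).

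Within lines, 4 members moved together from library to library. After the mean of each line was subtracted, BIRC2, XIAP, BIRC6 and HTRA2 correlated with each other at r of 0.76 to 0.89 over 12 libraries. The 15 other pairs of members lay between -0.42 and 0.15. The 4 were grouped after these values were seen, and the difference between silenced and control libraries was left in. With these members 1% of all tested genes exceeded r of 0.89 to 0.93, so r of this size was not confined to the 4. In KYSE150 control replicates 1 and 2, all 4 genes lay below the mean of the line, and in silenced replicates 2 and 3 all 4 lay above it. In KYSE510 all 4 lay below it in control replicate 1 and in silenced replicates 1 and 2, and above it in control replicates 2 and 3. These 4 genes also correlated with the mitochondrial share of reads, at r of -0.74 (BIRC2), -0.85 (XIAP), -0.88 (BIRC6) and -0.95 (HTRA2), while BIRC3, BIRC5 and DIABLO lay between 0.16 and 0.28. The libraries share their scaling, so these values describe the libraries, and the part of the mitochondrial share in them was not tested.

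**Figure D4:**
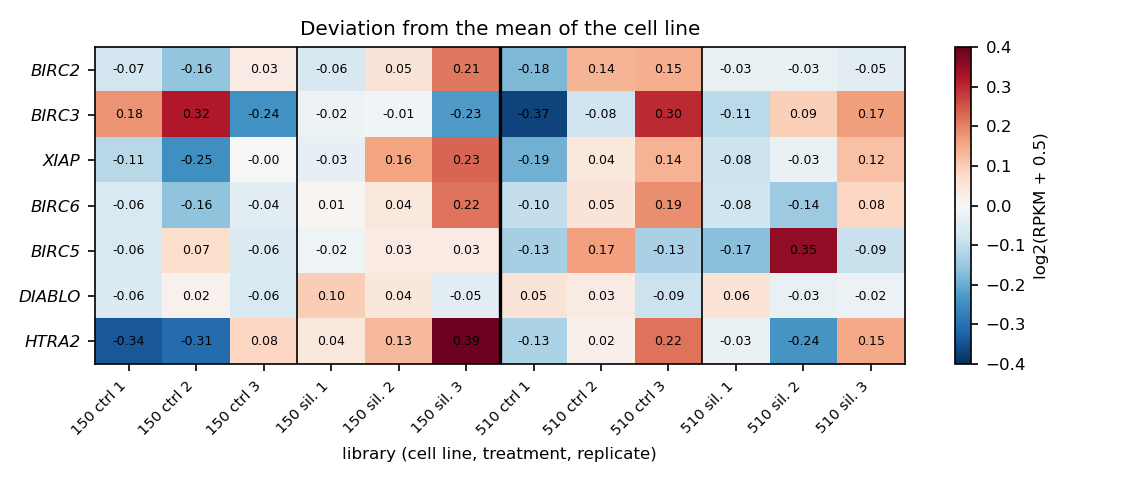
Deviation of log2(RPKM + 0.5) of each gene from the mean of its cell line in the 12 libraries, in colour and as numbers. BIRC2, XIAP, BIRC6 and HTRA2 are low in the first 2 KYSE150 controls and high in KYSE150 silenced replicate 3, whereas BIRC5 is high in replicate 2 of both KYSE510 groups.

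The tested genes most like each member by the same measure were named by rule, out of all tested genes with a mean of at least 1 RPKM. BIRC5 was most like NEK2 (r = 0.99) and CCNB2 (r = 0.97), a kinase of centrosome separation and a mitotic cyclin. NEK2 was at 25.5 and 30.1 RPKM in the KYSE510 replicate 2 libraries and at 14.8 to 16.5 in the other 4. XIAP was most like BRE and KIAA0196 (both r = 0.98), BIRC6 most like OGT (0.96) and SMIM13 (0.95), BIRC2 most like INTS8 and FGD5-AS1 (both 0.97), and HTRA2 most like MAP3K9 and TPCN1 (both 0.97). BIRC3 was most like SF3B1 (0.87) and MTATP8P1 (0.86), and DIABLO most like SP2 (0.91) and CNOT3 (0.84). The r that 1% of tested genes exceeded was 0.92 for HTRA2, 0.93 for XIAP, 0.91 for BIRC2, 0.89 for BIRC6, 0.80 for BIRC5, 0.66 for BIRC3 and 0.60 for DIABLO.

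Among genes of the apoptosome and caspase cascade, CASP6, an effector protease, had a log2 difference of -0.31 (SE 0.14, adjusted p = 0.271) in KYSE150. APAF1, the scaffold of the apoptosome, was at 0.13 (SE 0.14, adjusted p = 0.952) in KYSE510. Between control lines the initiators CASP8 (log2 difference 1.496, SE 0.08, adjusted p = 3.38e-08) and CASP9 (0.43, SE 0.15, adjusted p = 0.0236) were higher in KYSE510. Of all tested genes 28.3% were called higher there.

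Of 26 TNF receptor and NF-kappaB genes that work with BIRC2 and BIRC3, 0 were called after silencing in either line. Of all tested genes 0.499% were called in KYSE150 and 0.0393% in KYSE510. In KYSE150, 23 of the 26 were above 0, with a median log2 difference of 0.15 against 0.08 over all genes. After median centring 15 of 26 were above 0. RELA, a subunit of NF-kappaB, had a log2 difference of 0.27 (SE 0.06, adjusted p = 0.0895), and NFKBIA, its inhibitor, of 0.42 (SE 0.10, adjusted p = 0.0905). MAP3K14 lay in the other direction, with means of 11.6 RPKM in controls and 7.88 in silenced libraries (-0.54, SE 0.13, adjusted p = 0.096). The replicate block, with 6.7% of all tested genes called, called 3 of the 26: NFKBIA (adjusted p = 0.0367), CYLD (0.0445) and TNFRSF1A (0.0195). In KYSE510 the smallest p were those of IKBKG (-0.22, SE 0.09, adjusted p = 0.726) and CYLD (0.15, SE 0.09). BIRC3 was not called in the blocked KYSE150 fit (-0.17, SE 0.11, adjusted p = 0.329). Between control lines 10 of the 26 were higher in KYSE510 and 6 lower, in all close to the 62% of tested genes that differed. NFKBIA was higher by 2.03 (SE 0.10) and TNFRSF1A, the receptor, by 1.11 (SE 0.13). MAP3K14, the kinase that BIRC2 and BIRC3 mark for turnover, was lower, at 11.6 ± 0.675 RPKM in KYSE150 controls and 2.17 ± 0.180 in KYSE510 controls (SD, n = 3), a log2 difference of -2.18 (SE 0.13, adjusted p = 7.82e-08). Turnover of MAP3K14 concerns its protein, which was not measured. The deubiquitinase CYLD was also lower (-1.78, SE 0.09). The kinase IKBKB (0.94, SE 0.07) and its scaffold IKBKG (1.09, SE 0.09) were higher.

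Of 16 tested passenger complex and mitosis genes, 0 were called after silencing in either line, against 0.499% of all tested genes in KYSE150 and 0.0393% in KYSE510. The block called 1 of the 16 in KYSE150, PLK1 (adjusted p = 0.0369), near the 6.7% of all tested genes that it called there. CENPA (log2 difference 0.61, SE 0.23, adjusted p = 0.216) and XPO1 (0.23, SE 0.11) had the smallest unadjusted p there, and CDK1 (0.18, SE 0.14) and RCC2 (-0.11, SE 0.11) in KYSE510. Between control lines 5 were lower in KYSE510 and 2 higher, which is not above the shares of all tested genes. INCENP, the scaffold that BIRC5 binds, was at 71.6 ± 2.69 and 44.0 ± 9.65 RPKM (SD, n = 3; log2 difference -0.72, SE 0.16, adjusted p = 0.00225). CCNB1 (-1.14, SE 0.24), SGO1 (-0.64, SE 0.13), FOXM1 (-0.38, SE 0.14) and GSG2 (-0.34, SE 0.13) were lower, and RCC2 (1.42, SE 0.11) and XPO1 (0.60, SE 0.11) higher.

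Of 9 tested genes for other mitochondrial death factors and the context of HTRA2, 0 were called after silencing in either line. The shares of all tested genes were 0.499% in KYSE150 and 0.0393% in KYSE510. The nearest in KYSE150 were AIFM1 (-0.21, SE 0.08, adjusted p = 0.213) and CHCHD4 (-0.15, SE 0.08). In KYSE510 they were HTRA1 (0.18, SE 0.10) and AIFM1 (-0.13, SE 0.08). Between control lines 2 were higher and 5 lower, where 28.3% of all tested genes were called higher and 33.7% lower. HTRA1, a secreted relative of HTRA2, was at 0 in all 3 KYSE150 controls and at 7.68 ± 0.759 RPKM in KYSE510 controls (SD, n = 3). HTRA1 passed the filter on low values through KYSE510 libraries alone, so its call is not read as a trait of the list. AIFM1 (-0.30, SE 0.08), ENDOG (-0.73, SE 0.15), CHCHD4 (-0.92, SE 0.08) and PINK1 (-0.62, SE 0.19) were lower, and OPA1 (0.35, SE 0.09) was higher. Of 8 tested BIR-domain relatives and IAP regulators, 0 were called after silencing in either line, against the same shares of 0.499% and 0.0393%. The block called 1 of the 8 in KYSE150, TNFAIP3 (log2 difference 0.44, adjusted p = 0.0314), and 6.7% of all tested genes there. PARL, a mitochondrial rhomboid protease, was at 0.41 (SE 0.18, adjusted p = 0.258). In KYSE510 COMMD1 was at 0.23 (SE 0.08, adjusted p = 0.582) and BIRC7 at 0.37 (SE 0.16, adjusted p = 0.754). Between control lines 2 of the 8, BIRC7 and HAX1 (0.23, SE 0.07), were higher and 2, USP19 and TSC22D1 (-0.80, SE 0.13), lower in KYSE510. The shares of all tested genes were again 28.3% higher and 33.7% lower. BIRC7, another IAP, was at 0 in all 6 KYSE150 libraries and had means of 0.332 and 0.552 RPKM in KYSE510 control and silenced libraries. BIRC7 passed the filter on low values through KYSE510 libraries alone. Its values between lines and in KYSE510 rest on the libraries that admitted it, so no trait is read from them. USP19, a deubiquitinase reported to stabilise BIRC2 and BIRC3, differed by -0.95 (SE 0.10), in the direction opposite to both. That action is on protein, and only RNA was measured here.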

How the data were processed

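The authors deposited a table of RPKM per gene for 12 libraries. The submitters' processing notes name HISAT2, DESeq and GRCh38, with no roles or versions. Whether counting used strand is not given in the sources used here. RPKM times exon length gave whole multiples of 1 read for 100% of values (tolerance 0.05), so reads were recovered. RPKM was used as deposited on log2(RPKM + 0.5), a scale on which folds of low genes are understated. Genes with at least 0.5 RPKM in at least 3 libraries were tested in 1 limma 3.58.1 model (R 4.3.3) with 4 group means and a mean-variance trend, with 8 residual degrees of freedom. The fitting was tested on simulated data. P-values were two-sided and Benjamini-Hochberg adjusted over all genes tested, with a threshold of 0.05.

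Titles number the replicates. Deviations of same-numbered control and silenced libraries correlated at 0.147 to 0.415 in all 6 pairs, against -0.385 to 0.184 for other numbers, so the numbers were taken to pair libraries. The blocked fit was an alternative, beside other pseudocounts, filters, scalings, voom and leaving out each library.

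Members and lists were chosen with earlier results of these data known. The text names all members, list genes past the threshold (the first 6 per list and comparison by p, plus GSG2, named so that a count of 5 is complete) or with the 2 smallest p, the 2 genes most like each member, and near neighbours. DPY30, the 4 genes called lower near BIRC2 and list genes called by the blocked fit alone were named after their values were seen. SEPT4 of the regulator list was not matched. Some genes of the caspase list are not reported here.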

Additional observations from a re-analysis of the deposited data

How the results depend on the processing

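Over all alternatives the members' differences kept direction and side of the threshold in 566 comparisons with the reported values. They lost a call in 13, gained one in 9 and changed sign in 21. The log2 difference within a line cannot move with the replicate block alone or when a library of the other line is left out. Such comparisons do not test direction. The number of members called in KYSE150 was 1 with the replicate block and 2 with voom on recovered reads plus the block, and 0 under every other alternative. For the difference of change between lines it was 1 (HTRA2) with voom plus the block. Between control lines it was 6 with median centring or quantile normalization (HTRA2 and XIAP gained, DIABLO lost), 3 with no filter, and 3 to 5 when single libraries were left out, lowest without KYSE510 control replicate 2. Blocks do not span the lines, so the control lines have no blocked comparison. The block changed no other call of a member. Over all genes, calls ran from 7 to 3381 in KYSE150 (89 as reported) and 0 to 397 in KYSE510 (7). They ran from 43 to 1295 for the mean over lines (96) and 0 to 1353 for the difference (0). These silencing contrasts were highest with voom plus the block. Between control lines calls ran from 10145 to 12619 (11046). The 12619 came from the fit with no filter, over 36815 genes in place of 17823. Median centring changed the KYSE150 calls from 67 higher and 22 lower to 54 higher and 62 lower.

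Sign changes were limited to differences that were not called. In KYSE150, BIRC5 was at -0.10 with median centring, alone or with the block, and -0.0157 with quantile normalization. DIABLO was at -0.0643, alone or with the block, and -0.0402 there. For the difference between lines DIABLO was at 0.0919 with centring, alone or with the block, and 0.0744 with quantile normalization, and BIRC5 ran from -0.13 to 0.13 when single libraries were left out. In KYSE510, leaving out single libraries gave -0.0576 to 0.278 for BIRC3, -0.0957 to 0.165 for BIRC5, -0.0884 to 0.0785 for XIAP, -0.0412 to 0.0280 for DIABLO and -0.167 to 0.0265 for HTRA2. The cause was not tested. Depth limits BIRC3 most, with 84 to 367 reads per library. Intervals cover the spread between libraries, not between cultures.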
